A study of Mus musculus with 6 samples.

Results

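The genes that carry pyruvate carbon through the citric acid cycle were compared between mouse oocytes grown in culture and oocytes grown in the ovary. The 9 genes were Pdha1, Cs, Idh3a, Idh3b, Ogdh, Suclg1, Fh1, Mdh1 and Mdh2, taken by their symbols from a table of 10896 genes, and all 9 had a row. In oocytes grown in vitro, Ogdh was 2.27-fold lower than in oocytes grown in vivo. The other 8 genes differed by less than 1.5-fold and were not called different.

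Pyruvate that enters mitochondria is turned into acetyl-CoA by the pyruvate dehydrogenase complex. Citrate synthase joins this acetyl group to oxaloacetate, and the cycle oxidises it step by step and returns oxaloacetate, passing electrons to the respiratory chain. Mammalian oocytes use glucose poorly and rely on pyruvate, much of it supplied by the surrounding follicle cells, so that mitochondrial pyruvate oxidation is their main source of energy.

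All oocytes were still in meiotic arrest with an intact germinal vesicle, and came from (C57BL x CBA) F1 females. The in vitro group came from follicles that were freed with collagenase from the ovaries of females 10 to 12 days old. These follicles were cultured on membrane inserts in MEM-alpha medium with insulin, transferrin, selenium, fetal bovine serum and follicle stimulating hormone. The in vivo group was released with a needle from ovaries of females 7 to 11 weeks old, into M2 medium with dbcAMP, a cyclic AMP analogue that keeps oocytes arrested. Each group had 3 samples of 50 oocytes, and RNA was amplified from 10 ng of total RNA before sequencing. Growth in culture, the age of the donors and the handling at collection cannot be told apart. Every in vitro sample came from cultured follicles of juvenile females, and every in vivo sample was released from ovaries of adult females. The labels do not state whether samples within a group had separate animals or cultures as their source, so p-values here measure the spread between samples, which may be technical.

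The authors gave 1 mean of normalised reads per gene and group, and a PPEE, taken to be a posterior probability of equal expression rather than a p-value. A gene was called where its PPEE was below 0.05. Log2 changes are in vitro over in vivo, taken from both means after adding 0.599 to each, so that those of low genes are understated. For part of the genes the reads of each library could be worked back from the group means, and these libraries are named A, B and C by size factor, since nothing ties them to the sample numbers. The 7640 genes recovered in both groups held 742226 to 984248 reads per library in vitro and 788917 to 1124616 in vivo. Limma voom on these reads called 838 genes, and in vitro library A stood apart. Without it 1842 genes were called, and without any other library between 56 and 509. Of the 946 genes that were called by PPEE and had recovered reads, in vitro library A was the in vitro library nearest to the in vivo mean for 645. All 12 oocyte markers had rows, with summed authors' means of 123611 normalised reads in vitro and 171942 in vivo. Bmp15, Nlrp5 and Kit among them were called lower in vitro, as Ogdh was. Mos, Oosp1, Npm2 and Dppa3 lay higher in vitro, at log2 changes of 0.53, 0.85, 0.12 and 0.15, and the rest lower, all without a call. Of 12 granulosa and cumulus markers 7 were measured, and their sums were 439 in vitro and 266 in vivo. Fshr, Inha and Inhba among them were called higher in vitro, and none was listed at 0. Cyp19a1 and Hsd17b1 lay higher and Nr5a2 and Kitl lower in vitro, without a call. Foxl2, Amh, Fst, Nr0b1 and Amhr2 had no row. Of 8 markers of theca, stroma and luteal cells, Cyp11a1 and Hsd3b1 were measured, with a sum of 33.8 in vitro and 13.1 in vivo. Hsd3b1 was called higher in vitro, and Cyp11a1 lay lower without a call. Of 4 blood markers Cd68 was measured, at 14.1 in vitro and 10.8 in vivo. The part of these markers' cells, or of in vitro library A, in the results on called genes was not tested.

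Of the 9 genes, 0 were called higher and 1, Ogdh, was called lower in vitro. Of all the genes 15.1% were called, 6.75% higher and 8.31% lower, so 1 call among 9 is near the background. The count was 0 higher and 1 lower too at a PPEE below 0.01 (4.78% and 6.53% of all genes), with a 1.5-fold minimum (4.42% and 5.67%, 10.1% in all) and among genes with a mean of at least 10 (6.9% and 8.53%). The median log2 change of the 9 genes was -0.19, against 0.02 over all genes, with 3 genes above and 6 below 0. In bulk samples fewer oocytes of a kind and less RNA per oocyte cannot be told apart.

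**Figure D1:**
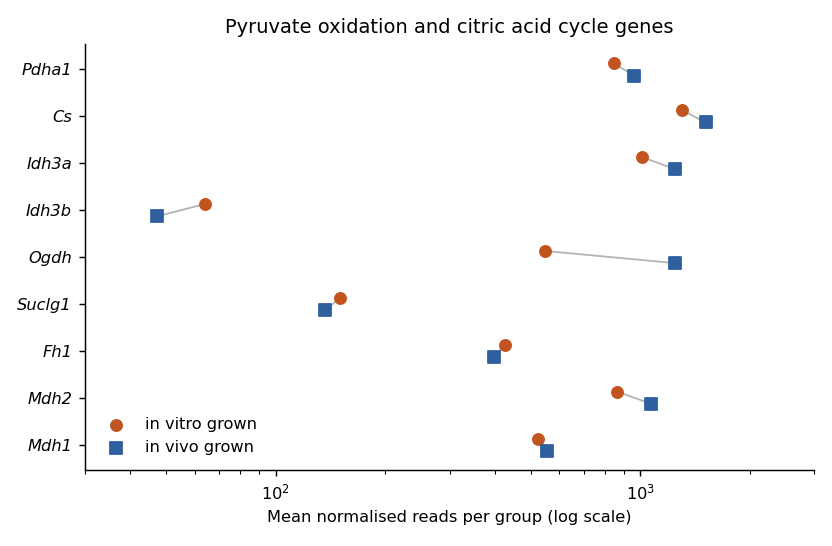
Mean normalised reads per group (log axis) of the 9 genes in oocytes grown in vitro (circles) and in vivo (squares), as given by the authors without a spread. Ogdh has the longest line between its means, at 548 in vitro and 1247 in vivo, and Idh3b has the lowest means.

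The pyruvate dehydrogenase complex commits pyruvate to the cycle, and Pdha1 encodes the X-linked alpha subunit of its decarboxylase. The authors' means of Pdha1 were 844 normalised reads in vitro and 960 in vivo, a log2 change of -0.19. It was not called, since the authors' deposited table lists a PPEE of 0.880. Cs encodes citrate synthase, the entry enzyme of the cycle, and its means were 1301 in vitro and 1510 in vivo. Its log2 change was -0.21, and the authors' deposited table lists its PPEE as 0.926. No spread between samples can be given for either gene, because reads per library could not be recovered above means of 600. Csl, a close copy of Cs, had no row, and its reads could be shared with Cs.

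The NAD-linked isocitrate dehydrogenase, which makes alpha-ketoglutarate, is built from catalytic alpha subunits and from beta and gamma subunits, encoded by Idh3a, Idh3b and Idh3g. Idh3a averaged 1012 normalised reads in vitro and 1247 in vivo by the authors' means, a log2 change of -0.30. The gene was not called, though its PPEE, 0.190 in the authors' deposited table, was the next lowest of the 9 after that of Ogdh.

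Idh3b, the beta subunit, lay the other way. Libraries A, B and C held 68, 65 and 50 of its reads in vitro, against 42, 65 and 45 in vivo. Division by the size factors gave 62.5, 67.4 and 62.0 normalised reads in vitro and 34.0, 57.6 and 50.8 in vivo. The groups did not overlap, all in vitro libraries being the higher, and in vivo library A was the lowest of the 6. The mean was 64.0 ± 2.96 in vitro and 47.4 ± 12.2 in vivo (SD over libraries, n = 3 each). Limma voom gave a log2 change of 0.48 with a 95% interval of -0.12 to 1.08, which did not pass (adjusted p = 0.270). The log2 change was 0.23 without in vivo library A and 0.65 without in vivo library B. The authors' deposited table lists its PPEE as 0.866. Among all recovered genes 33.4% had groups that did not overlap, 17.6% with in vitro higher, and Idh3b was the only one of 4 recovered members to do so.

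Idh3g, the gamma subunit, is not one of the 9 but completes the enzyme, and it was called higher in vitro. It had 247, 305 and 198 reads in vitro and 213, 186 and 165 in vivo, or 227, 316 and 246 normalised reads in vitro and 172, 165 and 186 in vivo. All in vitro libraries lay above all in vivo libraries. Its PPEE was 0.00678 in the authors' deposited table and its log2 change 0.59, while limma voom gave an adjusted p of 0.0587. Per kilobase of the table's gene length, Idh3a stood at 2.12 times the level of Idh3g in vitro and at 3.95 times in vivo. For Idh3a over Idh3b these ratios of levels per kilobase were 9.94 in vitro and 16.5 in vivo. These ratios assume that reads scale with gene length, and the difference between the subunits was not tested.

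Alpha-ketoglutarate is oxidised to succinyl-CoA by a complex whose thiamine-dependent dehydrogenase subunit is encoded by Ogdh. The authors' means of Ogdh were 548 normalised reads in vitro and 1247 in vivo, so it fell by 1.18 on the log2 scale, and its PPEE was 2.03e-10 in the authors' deposited table. In vitro libraries A, B and C held 831, 374 and 397 reads, or 764, 388 and 493 normalised reads, 548 ± 194 (SD, n = 3 libraries). Library A lay nearest to the in vivo mean and library B farthest from it. Only solutions with every library at 0.5 or more of the group mean were considered. None of these could reach the in vivo mean, so it was fixed in advance that all 3 lay below it. The in vivo reads could not be recovered at this level, so neither a spread in vivo nor a test on reads can be given. At means of 400 to 600, 9.43% of in vitro values shifted on purpose also gave a whole solution, which limits the certainty of these 3 values.

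Of all 10896 genes, 267 (2.45%) had a log2 change as low as that of Ogdh or lower, Ogdh included. Of the 2405 genes whose mean over both groups was at least 500 normalised reads, 7 (0.291%) did. Among the 905 genes called lower in vitro, 136 were as low or lower.

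**Figure D2:**
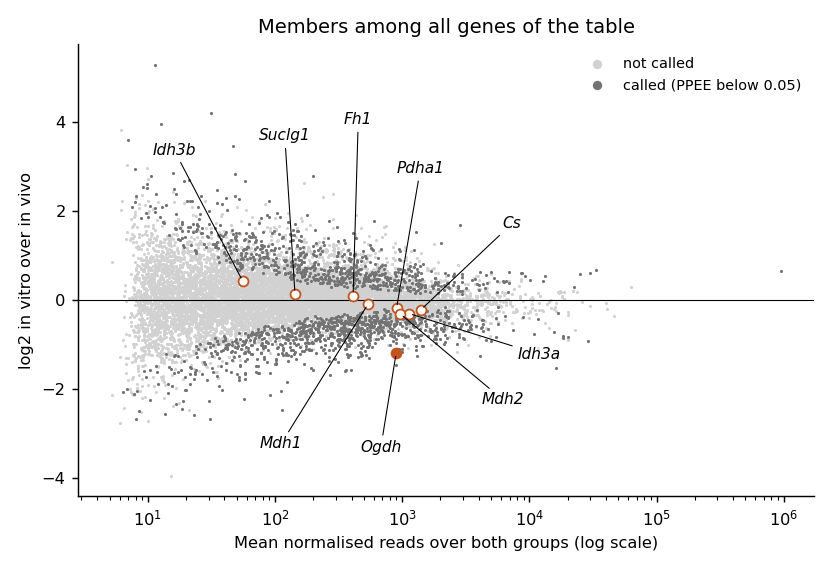
Log2 change in vitro over in vivo against the mean normalised reads over both groups (log axis) for all 10896 genes, called genes in dark grey, with the 9 genes ringed and filled where called. Ogdh lies at -1.18, and the other 8 lie between -0.31 and 0.43.

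The other subunits of the same complex were not called. Dlst, the succinyltransferase core, averaged 1429 normalised reads in vitro and 1781 in vivo, with a log2 change of -0.32, and the authors' deposited table lists its PPEE as 0.121. Dld, the dihydrolipoyl dehydrogenase that this complex shares with pyruvate dehydrogenase, averaged 2443 in vitro and 2422 in vivo, a log2 change of 0.01. Per kilobase, Ogdh stood at 0.160 of the level of Dlst in vitro and at 0.292 in vivo. Ogdhl, a related dehydrogenase gene, averaged 7.06 normalised reads in vitro and 11.9 in vivo. Dhtkd1, which acts in lysine breakdown, averaged 24.1 in vitro and 43.0 in vivo. Their log2 changes of -0.71 and -0.82 were not called, the authors' deposited table listing PPEE values of 0.767 and 0.103.

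The length that the table gives for Ogdh is not a whole number, 6642.78 bases, as for 14.5% of its genes. It is longer than the longest of 7 Ogdh transcripts of GENCODE M21, at 4127 bases, while the other 8 genes are each shorter in the table than their longest transcript. Levels per kilobase of Ogdh depend on this length, and its change between groups does not.

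Succinyl-CoA is split by succinyl-CoA synthetase, a dimer of the alpha subunit from Suclg1 with a beta subunit from Suclg2 or Sucla2. Suclg1 had 152, 155 and 122 reads in vitro and 177, 149 and 119 in vivo, in libraries A, B and C of each group. Normalised, they came to 140, 161 and 151 in vitro against 143, 132 and 134 in vivo. The groups overlapped, since in vitro library A lay below in vivo library A. The means were 151 ± 10.5 in vitro and 136 ± 5.86 in vivo (SD over libraries, n = 3 each), and limma voom gave a log2 change of 0.14 (95% interval -0.28 to 0.55, adjusted p = 0.674). The PPEE of Suclg1 is listed at exactly 1 in the authors' deposited table. Suclg2 and Sucla2 were not called, at log2 changes of -0.12 and 0.24.

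Fh1 encodes fumarase, which hydrates fumarate to malate. Libraries A, B and C held 427, 413 and 368 reads in vitro and 441, 478 and 363 in vivo, giving 392, 428 and 457 normalised reads in vitro and 357, 423 and 410 in vivo. The libraries of the groups overlapped. Means were 426 ± 32.2 in vitro and 397 ± 35.3 in vivo (SD over libraries, n = 3 each), so the difference was smaller than the spread. The log2 change of 0.10 by limma voom had a 95% interval of -0.22 to 0.42 (adjusted p = 0.687), and the PPEE was 0.954 in the authors' deposited table.

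Malate dehydrogenase closes the cycle, with Mdh2 in mitochondria and Mdh1 in the cytosol, where it serves the malate-aspartate shuttle. Mdh2 had authors' means of 863 normalised reads in vitro and 1071 in vivo, a log2 change of -0.31 that was not called (PPEE 0.962 in the authors' deposited table). Mdh1 had 572, 561 and 372 reads in vitro and 640, 593 and 552 in vivo. These became 526, 582 and 462 normalised reads in vitro and 517, 525 and 623 in vivo, with overlap between the groups. Its means of 523 ± 60.04 in vitro and 555 ± 59.1 in vivo (SD over libraries, n = 3 each) differed by less than the SD within either group. Limma voom gave Mdh1 a log2 change of -0.08, with a 95% interval of -0.39 to 0.24 (adjusted p = 0.763).

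**Figure D3:**
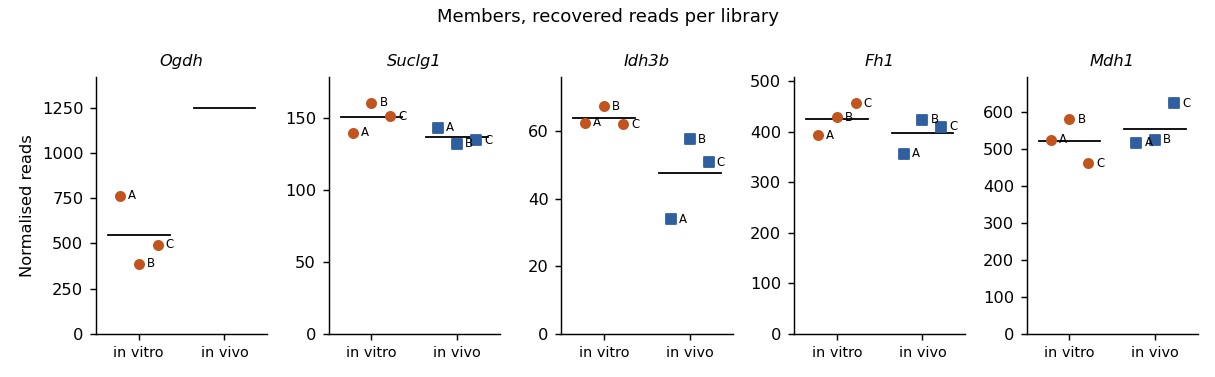
Normalised reads per library for Ogdh, Suclg1, Idh3b, Fh1 and Mdh1, in vitro (circles) and in vivo (squares), with libraries lettered A to C and black lines at the authors' means; each axis starts at 0. The in vivo libraries of Ogdh were not recovered and only their mean of 1247 is drawn. The way of solving kept the 3 in vitro libraries of Ogdh below this mean. Idh3b does not overlap between the groups, and Suclg1, Fh1 and Mdh1 do.

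Limma voom called 0 of the 4 recovered genes Idh3b, Suclg1, Fh1 and Mdh1, against 11% of all recovered genes (5.82% higher and 5.14% lower). At an unadjusted p below 0.05 it also called 0 of the 4, against 29.6% of the recovered genes. By PPEE 0 of these 4 were called, against 12.4% of the recovered genes. A missed threshold does not show that the groups were alike, and the intervals above bound the log2 changes of these 4 genes within -0.39 and 1.08.

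Levels spread widely among the 9 genes. Per kilobase of gene length, Mdh2 was the highest, with a level of 666 in vitro and 826 in vivo, followed by Cs at 460 in vitro and 534 in vivo and by Idh3a at 418 in vitro and 516 in vivo. Pdha1 came next at 304 in vitro and 346 in vivo. Then came Mdh1 at 267 ± 30.7 in vitro and 284 ± 30.2 in vivo (SD over libraries, n = 3 each), and Fh1 at 259 ± 19.6 in vitro and 241 ± 21.5 in vivo. These neighbours differed by less than their spread in vitro. Suclg1 stood at 107 ± 7.47 per kilobase in vitro and at 97.0 ± 4.16 in vivo, and Idh3b was the lowest at 42.1 ± 1.95 in vitro and 31.2 ± 8.001 in vivo. Ogdh, at 82.5 in vitro and 188 in vivo, ranked below Suclg1 in vitro and above it in vivo. With the longest GENCODE transcript as its length Ogdh would be at 133 in vitro and 302 in vivo, above Suclg1 in both groups. Over all genes the means rose only weakly with gene length, at Spearman correlations of 0.061 in vitro and 0.095 in vivo. Whether reads of these amplified samples scale with length was not tested. The ranks here and the ratios per kilobase above depend on it, and without division by length Cs had the highest means of the 9.

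In the authors' own annotation, 8 of the 9 genes carry the Gene Ontology term for aerobic respiration, Pdha1 being the exception. Of 22 genes with that term, 3 were called higher in vitro and 3 lower, 27.3% in all against 15.1% of all genes. Their median log2 change was -0.08. The 22 include these 8, with Ogdh among those called lower, so they are not a separate set.

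The wider pathway was read from 11 textbook lists with 62 genes besides the 9, of which 49 were measured. In these, 6 were called higher in vitro and 4 lower, 12.2% and 8.16% of the 49, against 6.75% and 8.31% of all genes, so the share called lower is near the background. The median log2 change of the 49 was -0.0021, with 24 above and 25 below 0. No row was found for Pdk4, Idh2, Csl, Mdh1b, Lipt2, Iba57, Sdhaf1, Pck1, Pck2, Me3, Gls2, Acss1 and Slc19a2.

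**Figure D4:**
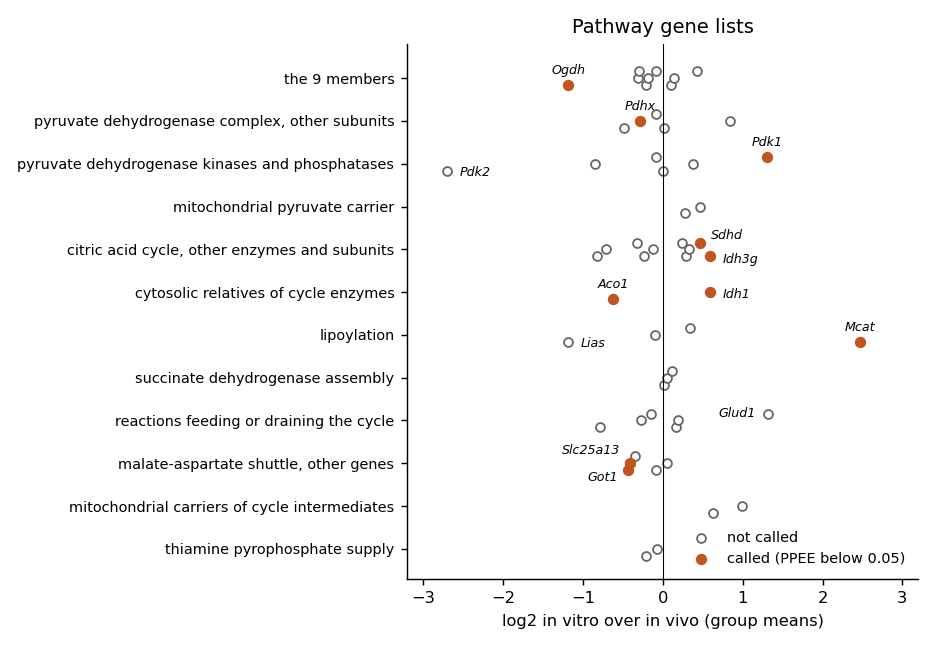
Log2 change in vitro over in vivo of measured genes by list; filled points were called at a PPEE below 0.05, and named open points differed at least 2-fold without a call. Calls lie on both sides of 0, from Ogdh at -1.18 to Mcat at 2.47.

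Around pyruvate dehydrogenase, 1 subunit was called, and 2 kinases differed at least 2-fold in opposite directions, each called by at least 1 of the measures. Of 5 other subunits 1 (20%) was called lower, where 8.31% of all genes were called lower. This was Pdhx, the anchor protein of the complex. It averaged 2530 normalised reads in vitro and 3081 in vivo, a log2 change of -0.28. The authors' deposited table lists its PPEE at 0. Pdhb, Dlat and Dld were not called, and neither was Pdha2, the testis form of the alpha subunit. Dlat, the acetyltransferase core, had a log2 change of -0.49, and the authors' deposited table lists its PPEE as 0.0873.

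Pyruvate dehydrogenase kinases switch the complex off by phosphorylation. Pdk1 had 37, 61 and 42 reads in vitro and 32, 16 and 17 in vivo, or 34.0, 63.2 and 52.1 normalised reads in vitro and 25.9, 14.2 and 19.2 in vivo. The groups did not overlap. It rose 2.48-fold, its PPEE being 0.00412 in the authors' deposited table, and by 1.28 ± 0.38 (SE) on the log2 scale by limma voom (adjusted p = 0.0413).

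Pdk2 went the other way, from few reads. It had 5, 2 and 0 reads in vitro and 26, 20 and 13 in vivo, or 4.59, 2.07 and 0 normalised reads in vitro and 21.0, 17.7 and 14.7 in vivo. Every in vitro library lay below every in vivo library. Its PPEE is listed at exactly 1 in the authors' deposited table, as for 1627 genes, 149 of which differ at least 2-fold. Limma voom called Pdk2 lower in vitro, by a log2 change of -3.19 ± 0.74 (SE, adjusted p = 0.0176). Pdk3, also of this family, and the phosphatase genes Pdp1, Pdp2 and Pdpr were called by neither measure.

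Beside Idh3g, 1 of the other citric acid cycle genes was called, Sdhd. Both were called higher in vitro, 2 of 11 measured genes of this list (18.2%). Of all genes 15.1% were called, 6.75% of them all as higher. Sdhd, for a membrane anchor of succinate dehydrogenase, had 372, 397 and 453 normalised reads in vitro and 285, 288 and 313 in vivo, without overlap. Its log2 change was 0.46 and its PPEE 8.24e-06 in the authors' deposited table, and limma voom gave an adjusted p of 0.0703. Sdhb and Sdhc had log2 changes of 0.33 and 0.29 and Sdha, the flavoprotein, one of -0.23, none of them called.

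Cytosolic relatives were called in opposite directions. Aco1, the cytosolic aconitase that doubles as an iron sensor, had 448, 310 and 367 normalised reads in vitro and 559, 586 and 584 in vivo. It fell by 0.62 on the log2 scale (PPEE 1.23e-06 in the authors' deposited table, adjusted p = 0.0253 by limma voom). Idh1, the cytosolic NADP-linked isocitrate dehydrogenase, had 457, 418 and 530 normalised reads in vitro and 342, 315 and 277 in vivo. It rose by 0.59 on the log2 scale (PPEE 5.57e-05 in the authors' deposited table, adjusted p = 0.0367 by limma voom). For both genes the groups did not overlap.

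Among genes for lipoic acid, the cofactor that pyruvate and alpha-ketoglutarate dehydrogenases share, Mcat rose and Lias lay lower without a call. Mcat, which loads malonyl groups for the mitochondrial fatty acid synthesis that supplies lipoate, had 39, 87 and 44 reads in vitro and 10, 17 and 7 in vivo. It had 35.8, 90.2 and 54.6 normalised reads in vitro and 8.08, 15.1 and 7.91 in vivo, 5.55-fold higher by the authors' means. The PPEE was 0.000539 in the authors' deposited table and limma voom gave an adjusted p of 0.0122. Lias, lipoic acid synthase, had 11, 2 and 8 reads in vitro and 17, 27 and 13 in vivo, a log2 change of -1.18, its PPEE being 0.179 in the authors' deposited table, and an adjusted p of 0.133 by limma voom.

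Among genes that feed or drain the cycle, Glud1, glutamate dehydrogenase, had 119, 340 and 248 normalised reads in vitro and 105, 105 and 72.3 in vivo. It was 2.49-fold higher by the authors' means and its PPEE was 0.377 in the authors' deposited table, while limma voom called it (adjusted p = 0.0377). In vitro library A, at 119, lay close to the in vivo libraries. Only in vitro solutions with every library at 0.5 or more of the group mean were considered. None of these could reach down to the in vivo libraries, so the gap between the groups was fixed in advance. The limma voom call used these same reads, so it is not separate support for a difference.

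The malate-aspartate shuttle, which Mdh1 and Mdh2 serve, held 2 calls, both lower in vitro, among its other 5 genes, where 8.31% of all genes were called lower. Got1, the cytosolic aspartate aminotransferase, had 292, 367 and 316 normalised reads in vitro against an authors' mean of 439 in vivo. It fell by 0.43 on the log2 scale, and its PPEE was 1.77e-05 in the authors' deposited table. Slc25a13, an aspartate-glutamate carrier, had 414, 368 and 355 normalised reads in vitro and 482, 465 and 569 in vivo. Its log2 change was -0.41, its PPEE was 0.0118 in the authors' deposited table, with an adjusted p of 0.0981 by limma voom. Got2, the mitochondrial aminotransferase, Slc25a11 and Slc25a12 were not called, and neither were the pyruvate carrier genes Mpc1 and Mpc2.

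**Figure D5:**
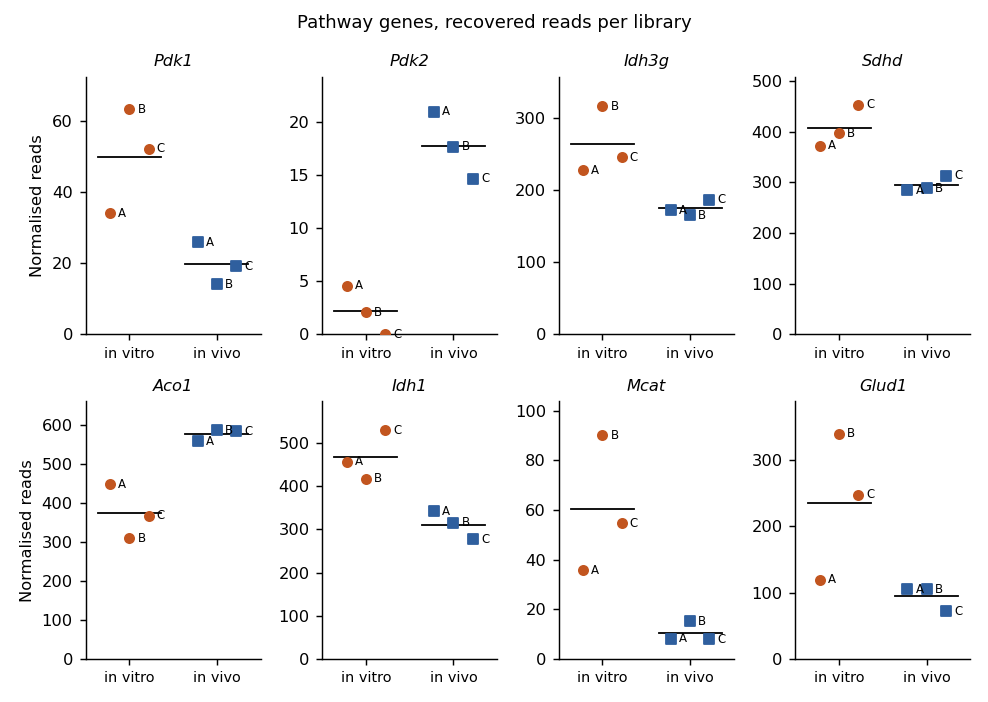
Normalised reads per library of 8 pathway genes, in vitro (circles) and in vivo (squares), with libraries lettered A to C and black lines at the authors' means; each axis starts at 0. The groups do not overlap in any of the 8 panels, which for Glud1 the way of solving fixed in advance. All 8 genes had been called by PPEE or limma voom on these same data. Of all recovered genes, called or not, 33.4% did not overlap. In vitro library A is the nearest to the in vivo mean for Pdk1, Pdk2, Idh3g, Sdhd, Aco1, Mcat and Glud1. It was the nearest for 68.2% of all genes called by PPEE with recovered reads.

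On recovered reads, limma voom called 5 of the 32 pathway genes tested higher and 2 lower, against a background of 5.82% and 5.14%. Pdk1, Idh1, Mcat and Glud1 were among the higher ones, and the lower ones were Pdk2 and Aco1. Groups did not overlap for 16 of the 32 genes, 10 higher and 6 lower in vitro, against 33.4% of all recovered genes. Glud1 is counted among the 5 and the 16, though the way of solving fixed its gap in advance. Among the 8 pathway genes called by PPEE with recovered reads, in vitro library A was the in vitro library nearest to the in vivo mean for 7, the other being Idh1. Over all 946 genes called by PPEE with recovered reads, in vitro library A was the nearest for 68.2%. Without in vitro library A limma voom called 8 genes higher and 4 lower, against 14.6% and 9.48% of all recovered genes in the same fit. The calls were 2 and 0 without in vitro library B, 1 and 0 without in vitro library C, and 0 and 0 without in vivo library A. They were 1 and 0 without in vivo library B and 1 and 1 without in vivo library C. In these 5 fits between 0.262% and 3.19% of all recovered genes were called higher and between 0.471% and 3.47% lower, so the counts move with those of all genes. Mcat stayed below an adjusted p of 0.05 in 5 of the 6 omissions.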

How the data were processed

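RNA of 6 samples was aligned with BWA to build mm9, per the submitters' processing notes; counter, normalisation and use of strand are not given in the sources used here, so reads of overlapping genes cannot be told apart. The deposited signal is the mean number of normalised reads per gene and group. The authors also deposited a log2 ratio, which adding 0.599 to both means returns to within 4.11e-09. The PPEE was read from the usual meaning of the term. The tests over samples foreseen for values per sample could not be run on group means.

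Reads per library were solved from the means, each a sum of whole reads times 1 step per library. Libraries A, B and C had size factors of 1.09, 0.965 and 0.806 in the in vitro group and of 1.24, 1.13 and 0.885 in the in vivo group. Up to means of 200, 95.1% in vitro and 95.4% in vivo had a single solution, and shifted values had one in 0.750% and 1.10%. Between 200 and 600, a step added after seeing the data, only solutions with every library at 0.5 or more of the group mean were considered. There 86.9% and 86.7% were solved up to 400 and 76.4% and 74.2% above, against 3.71% and 5.65%, and 9.43% and 12.1%, of shifted values. Tested on simulated data, the steps were right in 4 of 4 groups.

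Limma 3.58.1 (voom, R 4.3.3, 2-sided, Benjamini-Hochberg over 7640 genes) used the size factors as library sizes, scaled. With 200 changed genes simulated among 7640 for this comparison it found 44% of 2-fold and 93% of 4-fold changes, and 1.44% of calls were unchanged genes. The simulation gave all genes the same fixed dispersion and had no library that stood apart. These shares therefore need not hold for the recovered reads. No read carried a molecular identifier.

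The 9 genes and the lists were chosen with earlier results of these data known. Named were every one of the 9, and of the lists every gene without a row. List genes called or at least 2-fold different were named too, except where counted only. Other pathway genes are named beside them as subunits or relatives, after their values were seen. Some list genes are counted but not reported by name or plotted by list. Sdhaf3 and Sdhaf4 were found by gene identifier. All 9 identifiers matched RefSeq of GRCm38, and no coordinates are given since builds differ. Alternatives were the PPEE limit, a fold minimum, a filter on low means, pseudocounts, scaling, limma voom and leaving out libraries.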

Additional observations from a re-analysis of the deposited data

How the results depend on the processing

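Ogdh passed a PPEE below 0.01, a 1.5-fold minimum and a filter at a mean of 10, and the counts of 0 higher and 1 lower among the 9 genes did not change. Its log2 change lay between -1.24 and -1.18 with pseudocounts of 1 and 0, centring on the median of all genes and equal totals. These settings leave the authors' PPEE as it is and so do not test the call. Leaving out libraries could not be run on Ogdh. Idh3b ranged from 0.23 to 0.65 on the log2 scale when 1 library was left out, Suclg1 from 0.09 to 0.19 and Fh1 from 0.02 to 0.16. Mdh1 ranged from -0.15 to 0.0039, positive without in vitro library C (0.0038) or in vivo library C, and was not called in any of these fits. The 4 pathway genes called lower became 1 with a 1.5-fold minimum, when 5.67% of all genes were called lower. By limma voom the pathway genes called higher ranged from 0 to 8 and those called lower from 0 to 4 when 1 library was left out, against 6 and 2 by PPEE among the same genes. On means up to 200 only, limma voom called 1 higher and 1 lower, against 3 and 0 by PPEE, with fewer genes tested. No paired analysis was possible because the columns of group means carry no replicate numbers and the recovered libraries cannot be tied to them. Depth limits the genes with few reads, such as Pdk2 with 26 or fewer per library and Idh3b, of the recovered members the one with the fewest, with 68 or fewer.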
